A study of Homo sapiens with 2 samples.

Results

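RNAs named as antisense to another gene were compared between HN6 cells that overexpressed ZNF582 and control HN6 cells. A row of the deposited gene table belonged to the set when its gene name ended in -AS, with or without a final digit, did not start with HOX or EPB41L4A, and had at least 100 counts over both libraries together. Of 725 rows with such a name among 25534 genes in the table, 114 met this rule. The sum of both counts chose the members, so the sums are a description. They ran from 103 to 7042 with a median of 213. The members nearest above the minimum were BBOX1-AS1 with 103 counts, SLC25A5-AS1 with 104 and POC1B-AS1 with 105, and the antisense RNAs nearest below it were IGFL2-AS1 with 97, UBL7-AS1 with 95 and HMGN3-AS1 with 94. Below the minimum lay 205 antisense RNAs with 20 to 99 counts, HOX names left out, and 403 of any name with fewer. EPB41L4A-AS1 had 275 and 441 counts and was left out by the rule.

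HN6 is an established cell line that the labels give as human tongue squamous cell carcinoma. The study sequenced total RNA of 1 control library, labelled wild type, and 1 library of cells with ZNF582 overexpression plasmids, brought in with polybrene; ZNF582 is a KRAB zinc finger protein, a class of DNA-binding proteins known mostly as repressors. The labels do not give the promoter of the plasmid, whether clones or pools of cells were sequenced, the time after transfection, or whether control cells received an empty vector, so an effect of ZNF582 and of the plasmid cannot be told apart. The libraries held 14765244 counts (control) and 17792172 counts (ZNF582). ZNF582 itself had 14 counts in control cells and 277387 with the plasmid, 1.56% of all counts there. Its own antisense RNA was not analysed here. With 1 library per group there is no replicate spread, and the difference between any 2 values below has no replicate check. All 10 squamous epithelial markers were listed, with a summed level of 1682 FPKM in control and 2352 FPKM in ZNF582 cells (the authors' unit of level, per length and library size), although KRT14 had only 7 and 19 counts. EGFR alone made up 1328 and 1790 FPKM of these sums and LAMB3 158 and 384 FPKM. By the 2-fold rule given below, 3 of the 10 were higher in the ZNF582 library (KRT17, LAMB3 and KRT6A) and 0 lower. Of all genes with at least 20 counts, 4.28% were higher and 5.01% lower. CDH1 (34.9 and 22.2 FPKM), ITGB4 (48.7 and 35.2 FPKM) and EPCAM (91.0 and 71.4 FPKM) were lower in the ZNF582 library without passing 2-fold. Of the markers of other cells, 2 of 6 for fibroblasts, 1 of 5 for blood cells, 3 of 3 for endothelium and 1 of 2 for melanocytes were listed, at summed levels of 1.58 and 1.01 FPKM for fibroblasts, 0.0527 and 0.175 FPKM for blood cells, 0.343 and 0.250 FPKM for endothelium and 0.259 and 0.180 FPKM for melanocytes. By the same rule the fibroblast marker LUM was lower (36 control and 10 ZNF582 counts) and the endothelial marker VWF higher (5 and 16 counts). The defining markers COL1A2, COL3A1 and PTPRC were not among the listed genes, and the part of other cells in the results was not tested.

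An antisense RNA is transcribed from the strand opposite to a gene, often from a start close to that gene's own promoter or from beyond its 3′ end. Some are known to act on the sense gene through its chromatin, splicing or RNA stability, some act on other targets in the nucleus or cytoplasm, and for most no function is established. OIP5-AS1, the human counterpart of the Cyrano RNA of fish and mice, carries a site of unusually long complementarity to the microRNA miR-7, and GABPB1-AS1 starts beside the promoter of GABPB1, the β subunit of the ETS-family transcription factor GABP.

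The set held 2 RNAs whose values moved far more than the others, and both start on chromosome 15. Their start regions are shown because these 2 RNAs had the largest differences in the set. The start region of GABPB1 is given beside them, with that of FBXL19-AS1, whose level moved opposite to its sense gene. Whether these sequences bear on the levels was not tested. Each window runs from 250 bases before to 50 bases after the start of the gene in RefSeq (GRCh38.p14), 5′ to 3′ on the strand of its gene, and capitals mark matches on either strand to the E-box CACGTG, the CCAAT box, the TATA box TATAAA, the cyclic AMP element TGACGTCA, the GC box GGGCGG or the ETS motif CCGGAAG, none of which contains another.
OIP5-AS1, chr15:41283740-41284039, plus strand: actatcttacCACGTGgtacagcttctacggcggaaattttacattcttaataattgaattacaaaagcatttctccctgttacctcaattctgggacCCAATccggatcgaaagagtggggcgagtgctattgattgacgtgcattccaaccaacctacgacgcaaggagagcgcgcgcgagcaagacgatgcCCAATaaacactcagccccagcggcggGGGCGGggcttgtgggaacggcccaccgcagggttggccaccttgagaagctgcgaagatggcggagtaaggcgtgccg
GABPB1-AS1, chr15:50353924-50354223, plus strand: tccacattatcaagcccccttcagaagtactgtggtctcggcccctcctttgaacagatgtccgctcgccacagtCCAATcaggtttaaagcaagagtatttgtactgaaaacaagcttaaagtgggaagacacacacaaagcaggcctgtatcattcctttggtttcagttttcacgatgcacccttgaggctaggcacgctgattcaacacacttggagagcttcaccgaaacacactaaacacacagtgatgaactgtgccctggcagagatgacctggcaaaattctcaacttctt
GABPB1, chr15:50355149-50355448, minus strand: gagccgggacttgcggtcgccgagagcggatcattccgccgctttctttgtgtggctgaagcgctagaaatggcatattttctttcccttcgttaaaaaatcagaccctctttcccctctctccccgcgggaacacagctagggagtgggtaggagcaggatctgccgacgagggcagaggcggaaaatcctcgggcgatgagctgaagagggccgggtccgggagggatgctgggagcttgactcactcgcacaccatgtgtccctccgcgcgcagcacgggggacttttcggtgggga
FBXL19-AS1, chr16:30923220-30923519, minus strand: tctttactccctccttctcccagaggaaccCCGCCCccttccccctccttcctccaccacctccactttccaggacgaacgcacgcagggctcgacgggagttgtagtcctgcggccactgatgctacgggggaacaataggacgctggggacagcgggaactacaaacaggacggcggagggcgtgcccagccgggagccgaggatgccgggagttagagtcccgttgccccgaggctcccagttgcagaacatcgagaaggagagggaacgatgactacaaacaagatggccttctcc
The window of OIP5-AS1 held an E-box at position -240, a CCAAT at -152 and at -56 and a GC box at -29, counted from the start. The window of GABPB1-AS1 held a CCAAT at -175, that of GABPB1 none of the 6 motifs, and that of FBXL19-AS1 a GC box at -220. The RefSeq start used for GABPB1-AS1 lies 785 bases from the start of the deposited span and that of GABPB1 210 bases, while those of OIP5-AS1 and FBXL19-AS1 coincide with it. The GABPB1-AS1 window ends before the deposited start, so it does not hold the start of the span that was counted. Over the 83 members with a RefSeq window, the ETS motif was found in 20.5%, the GC box in 60.2%, the CCAAT box in 41.0%, the TATA box in 6.02%, the cyclic AMP element in 2.41% and the E-box in 10.8%. Over all 35116 windows of the same length, taken without regard to level, these shares were 10.3%, 45.0%, 34.6%, 11.5%, 1.85% and 7.26%. The 2 sets of windows are not matched for expression, so the shares do not show a trait of antisense RNAs. A match is a description of letters and not of a bound site.

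The miR-7 site of OIP5-AS1 is shown because it is the best known sequence of that RNA. The mature microRNA is given with its seed, bases 2 to 8, in capitals, and the site with the complement of the seed in capitals.
hsa-miR-7-5p (RefSeq): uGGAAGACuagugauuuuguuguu
OIP5-AS1, chr15:41300570-41300599, plus strand (GRCh38): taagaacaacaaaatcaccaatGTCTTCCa
The site lies in the last of the 4 exons of the longest annotated OIP5-AS1 transcript (8829 bases), where 15 of the 16 microRNA bases past the seed pair with the RNA once 2 extra RNA bases are allowed between. The seed complement alone occurred 3 times in this transcript, in 2 of the 10 annotated OIP5-AS1 transcripts, and in 11.5% of all 206694 annotated transcripts. The deposited values are per gene, so which transcripts carried the counts was not analysed, and miR-7 itself was not measured.

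The members together took 23650 control counts (0.160% of all) and 28276 ZNF582 counts (0.159%), so the set as a whole kept its share. Their median level was 1.26 FPKM in the control library, with a range from 0.209 to 28.8, and 1.18 FPKM in the ZNF582 library, with a range from 0.131 to 34.4. Of the 114 members, 38 lay below 1 FPKM in both libraries and 11 above 5 FPKM in either. Counts were scaled by library total and TMM factors fitted on the whole table, and a gene passed the rule for a difference when it differed by at least 2-fold with an exact 95% Clopper-Pearson interval that did not reach 1. Where 2 counts or levels of a gene are given, the control library comes first. The interval, given in brackets with each fold, covers counting error only.

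By this rule 12 of the 114 members differed (10.5%), 7 higher (6.14%) and 5 lower (4.39%) in the ZNF582 library. Over all 12492 genes with at least 100 counts, 6% passed, 3.19% higher and 2.81% lower. The minimum of 100 acts differently on the members than on all genes, since the median sum was 213 for members and 1029.5 for all genes. Of the 12 members that passed, 6 would have fallen below 100 at the level of their lower library, as would 14 members in all, so these counts are a description. The 6 were CFLAR-AS1, ADAMTSL4-AS1, PPP3CB-AS1, GABPB1-AS1, MAPKAPK5-AS1 and IRF1-AS1. The median log2 fold of the members was -0.01 (quartiles -0.29 and 0.28) against 0.02 (quartiles -0.26 and 0.30) for all genes. There was no common direction: 56 members lay above 0 and 58 below. Besides the 12, 14 members passed 1.5-fold with an interval that excluded 1, another 18 had an interval that excluded 1 with a smaller difference, and for 70 the interval held 1.

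**Figure D1:**
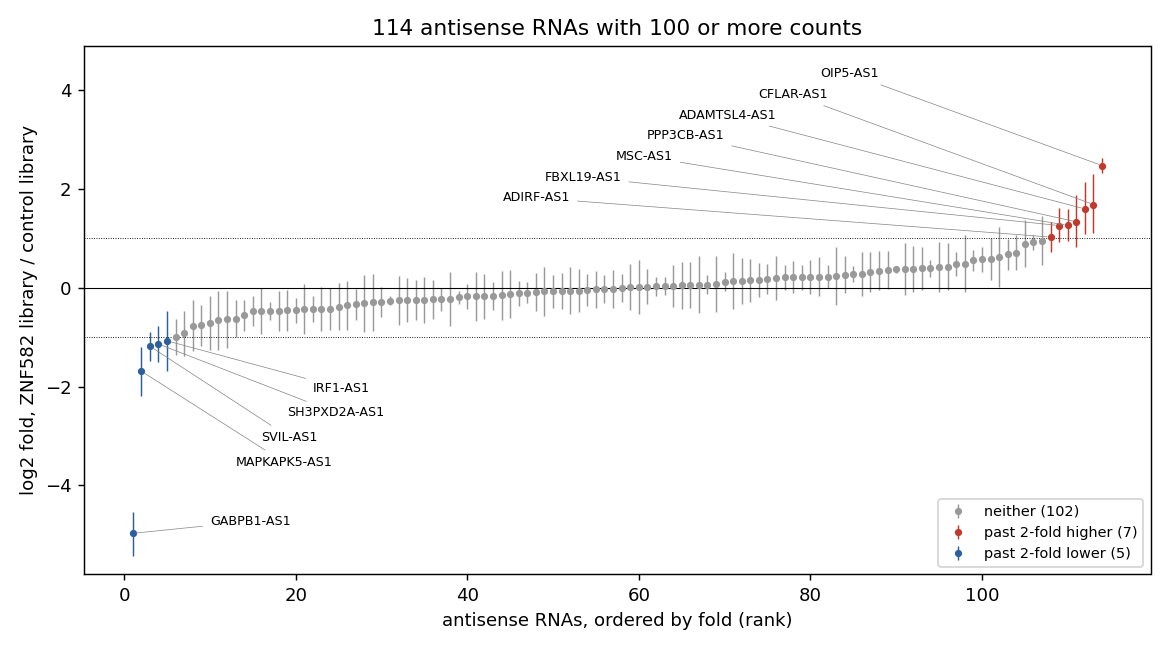
Log2 fold (ZNF582 over control, TMM scaled) of each of the 114 members in rank order, with bars for the 95% counting interval and coloured points for the 12 members past 2-fold. Most members lie close to 0, while OIP5-AS1 at 2.48 and GABPB1-AS1 at -4.97 stand away from the rest at the 2 ends.

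Of the 205 antisense RNAs with 20 to 99 counts, 38 passed the rule (18.5%), 17 higher (8.29%) and 21 lower (10.2%). This was near the share of all 4177 genes in the same count range, of which 19.1% passed, 7.52% higher and 11.6% lower. The median log2 fold was -0.05 for these antisense RNAs and -0.12 for all genes of the range. IGFL2-AS1, the nearest to the minimum, had 67 and 30 counts, a log2 fold of -1.31.

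GABPB1-AS1 showed the largest difference of the set. It had 1299 control counts (4.46 FPKM) and 46 ZNF582 counts (0.131 FPKM), which made it the third most counted member in the control library and the member with the lowest FPKM in the ZNF582 library. Because RNAs low in both libraries were left out, this lowest place is a description, and GABPB1-AS1 met the minimum only through its control count. Its level was 31.4-fold lower (23.4 to 43.1) with ZNF582. The RNA spans 15:50354959-50372202 on the plus strand, with 2 annotated exon blocks that cover 17179 bases, and its start lies 449 bases inside the GABPB1 gene, head to head with it. GABPB1 went the other way without passing the rule, from 751 to 1328 counts, a log2 fold of 0.67 (0.54 to 0.80). The genes share 424 exonic bases on opposite strands. Because the use of strand in the counting is not known, reads of the shared bases cannot be told apart, and the sum of both genes, which does not depend on how such reads were split, went from 2050 to 1374 counts, a log2 fold of -0.73 (-0.83 to -0.63).

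Among the other antisense RNAs of genes that regulate transcription, MSC-AS1 and FBXL19-AS1 were higher and IRF1-AS1 was lower. MSC encodes musculin, a basic helix-loop-helix repressor, and MSC-AS1 had 111 control and 297 ZNF582 counts, 2.41-fold higher (1.93 to 3.02), with 168 and 235 counts for MSC. FBXL19 encodes a CpG-island-binding F-box protein. FBXL19-AS1, a single-exon RNA of 3951 bases at 16:30919319-30923269, had 99 and 264 counts (1.70 and 3.76 FPKM) and was 2.40-fold higher (1.90 to 3.05). Its sense gene, whose start lies 214 bases away, had 322 and 245 counts, a log2 fold of -0.55 (-0.79 to -0.30) that did not pass the rule. The order of the 2 genes thus changed: FBXL19-AS1 had 30.7 counts (control) and 107.8 counts (ZNF582) per 100 counts of FBXL19. IRF1-AS1 accompanies IRF1, a transcription factor of the interferon response, and had 70 and 37 counts, 2.10-fold lower (1.39 to 3.22), while IRF1 had 797 and 631, a log2 fold of -0.49. With FPKM and a pseudocount of 0.1 the log2 ratio of IRF1-AS1 was -0.93, no longer past 2-fold. Its deposited span ends before IRF1 begins, whereas the GENCODE 29 model is longer and shares 1716 exonic bases with IRF1.

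Antisense RNAs of cytoskeleton and matrix genes moved in both directions. ADAMTSL4 encodes a secreted matrix protein of microfibrils. ADAMTSL4-AS1 had 41 control and 138 ZNF582 counts, 3.03-fold higher (2.12 to 4.40), and its sense gene 179 and 141, a log2 fold of -0.50. SVIL and SH3PXD2A, which encode the actin-binding protein supervillin and the podosome scaffold TKS5, both had a lower antisense RNA. SVIL-AS1 had 300 and 147 counts, 2.27-fold lower (1.86 to 2.78), while SVIL had 2336 and 2365. SH3PXD2A-AS1 had 186 and 94 counts (4.26 and 1.79 FPKM), 2.20-fold lower (1.71 to 2.85), and its sense gene had 1148 and 1090. It lies within SH3PXD2A at 10:103745966-103755423 and was the only member past the rule whose annotated exons share no base with a listed gene.

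OIP5-AS1 was the member with the largest higher value. OIP5 encodes a protein that helps to load the centromeric histone CENP-A after cell division. OIP5-AS1 had 395 control counts (1.76 FPKM) and 2443 ZNF582 counts (9.06 FPKM), 5.57-fold higher (5.00 to 6.21), and it accounted for more counts gained than any other member. OIP5 had 406 and 450 counts, a log2 fold of 0.00 (-0.20 to 0.19). The RNA lies at 15:41283990-41309737, tail to tail with OIP5, and its last exon shares 470 bases with the last exon of that gene. The antisense RNA went from 97.3 to 543 counts per 100 counts of OIP5.

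**Figure D2:**
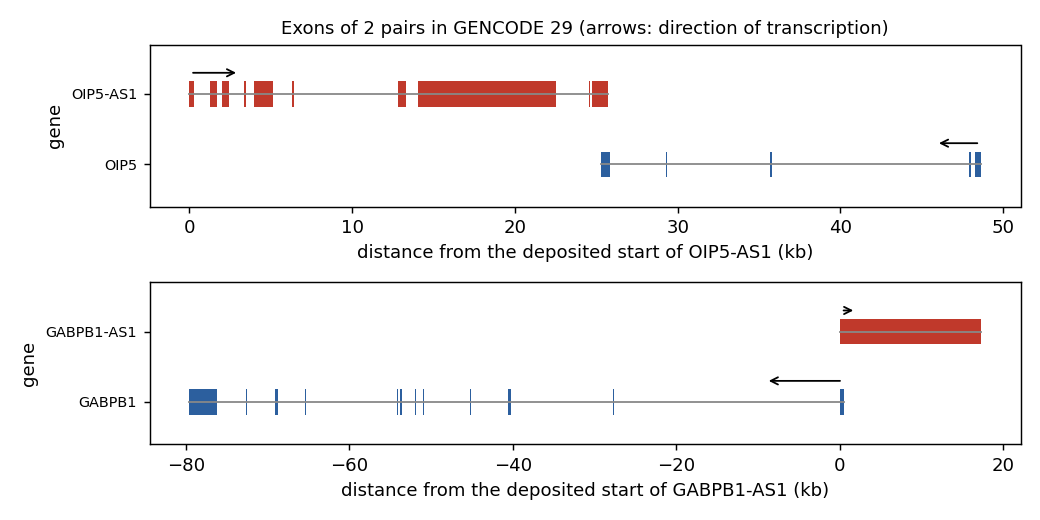
Exons (boxes) and spans (lines) of OIP5-AS1 with OIP5 and of GABPB1-AS1 with GABPB1, drawn to scale in kilobases from the start of the antisense RNA, with arrows for the direction of transcription. OIP5-AS1 meets OIP5 at their 3′ ends, whereas GABPB1-AS1 and GABPB1 start beside each other and run apart.

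In the remaining cases the sense genes take part in apoptosis, calcium and stress signalling or fat cell differentiation. CFLAR encodes c-FLIP, an inhibitor of caspase-8 at death receptors. CFLAR-AS1 had 31 control and 111 ZNF582 counts, 3.22-fold higher (2.15 to 4.97), and CFLAR, inside which it lies, had 407 and 932, 2.06-fold higher (1.83 to 2.32). This was the only pair in which both genes passed the rule in the same direction, and CFLAR was no longer past 2-fold with total-count scaling (log2 fold 0.93). The genes share 777 exonic bases. PPP3CB encodes a catalytic subunit of calcineurin, the calcium-dependent phosphatase. PPP3CB-AS1 had 42 and 118 counts, 2.53-fold higher (1.76 to 3.69), beside 2173 and 2409 for PPP3CB. On the FPKM scale with a pseudocount of 0.1 its log2 ratio was 0.98, under 2-fold, and it shares 1528 exonic bases with USP54 on the opposite strand, which had 947 and 1270.

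ADIRF, a regulator of fat cell differentiation, was the only gene that passed the rule against a passing antisense RNA. ADIRF-AS1 had 127 control and 288 ZNF582 counts, 2.04-fold higher (1.65 to 2.53), and ADIRF had 118 and 51, 2.57-fold lower (1.84 to 3.65). They began at nearly equal counts and ended with 565 antisense counts per 100 sense counts. ADIRF-AS1 was no longer past 2-fold with total-count scaling, at a log2 fold of 0.91. It shares 917 exonic bases with ADIRF on the opposite strand, and with strand use unknown, reads of these bases cannot be told apart. The sum of both genes went from 245 to 339 counts. ADIRF-AS1 also shares 440 exonic bases with MMRN2 on its own strand, which had 162 and 105 counts. MAPKAPK5, a kinase of stress-activated MAP kinase pathways, starts within its antisense RNA. MAPKAPK5-AS1 had 139 and 48 counts, 3.22-fold lower (2.30 to 4.57), while MAPKAPK5 had 979 and 1123. The genes share 792 exonic bases and their sum was 1118 and 1171 counts, a log2 fold of -0.09 (-0.20 to 0.03).

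The members were also grouped by what the sense gene does, in groups made after the values were seen. The 17 antisense RNAs of DNA-binding and transcription factors, subunits such as GABPB1 included, had a median log2 fold of -0.17. Of these, 1 passed the rule higher (MSC-AS1) and 2 lower (GABPB1-AS1 and IRF1-AS1). FBXL19-AS1, which passed higher, was counted among the other members, so the directions within this group depend on that placement. The 15 antisense RNAs of cytoskeleton, matrix and adhesion genes had a median of 0.01 with 1 higher and 2 lower. None of the 19 of genes for RNA processing, translation and protein turnover and none of the 12 of transporters and receptors passed, with medians of 0.16 and 0.02; with 6% of all genes past the rule, counts of 0 in groups of this size are near the background. The other 51 held 5 higher and 1 lower at a median of -0.03.

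Of the members with most counts, OIP5-AS1 and GABPB1-AS1 passed the rule, at 5.57-fold higher and 31.4-fold lower in the ZNF582 library. These were also the largest differences of the set in each direction. The others with most counts did not pass the rule and are given here. AFAP1-AS1, whose sense gene encodes an actin filament-associated protein, was the most abundant member with 2888 control counts (28.8 FPKM) and 4154 ZNF582 counts (34.4 FPKM), a log2 fold of 0.37 (0.30 to 0.44). AFAP1 had 3236 and 2510 counts, a log2 fold of -0.52 (-0.60 to -0.44), so the ratio of antisense to sense was higher by 0.89 on the log2 scale without reaching 2-fold. FGD5-AS1 had 2091 and 1946 counts, a log2 fold of -0.26, and the table has no row named FGD5. PSMA3-AS1, beside a proteasome subunit gene, had 935 and 912 counts, a log2 fold of -0.19, and PSMA3 had 2565 and 2115. THAP9-AS1, beside a gene derived from a DNA transposase, was nearest to the rule among the RNAs with most counts that did not pass it. It had 533 and 1121 counts, a log2 fold of 0.92 (0.77 to 1.07). Its exons share 482 bases with SEC31A on the same strand. SLC16A1-AS1, beside the gene of the lactate transporter MCT1, had 490 and 716 counts, a log2 fold of 0.39, and SLC16A1 a log2 fold of 0.04. EGFR-AS1 lies within the gene of the epidermal growth factor receptor, which alone took 2.32% of all control counts and 3.12% of all ZNF582 counts. EGFR-AS1 had 555 and 747 counts, a log2 fold of 0.28 (0.12 to 0.44), and EGFR 341987 and 555401, a log2 fold of 0.55. They share 186 exonic bases on opposite strands, and with EGFR at this level the share of EGFR reads among the counts of EGFR-AS1 was not tested.

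**Figure D3:**
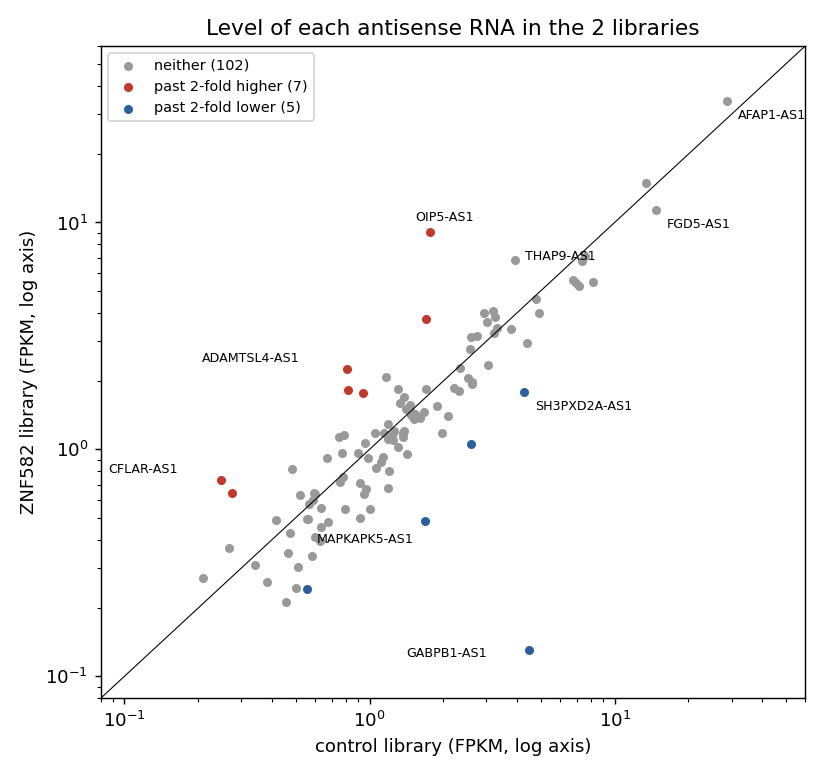
FPKM of each member in the control library (x axis) and in the ZNF582 library (y axis), both on log scales, with the line of equal FPKM and coloured points for the 12 members past 2-fold. The abundant RNAs AFAP1-AS1, at 28.8 and 34.4 FPKM, and FGD5-AS1 lie near the line, OIP5-AS1 lies above it and GABPB1-AS1 far below it.

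Members of the same locus did not move together in the case of DLGAP1, which encodes a scaffold protein of synapses. DLGAP1-AS1 had 53 control and 114 ZNF582 counts, a log2 fold of 0.95 (0.47 to 1.45), and DLGAP1-AS2 had 203 and 221, a log2 fold of -0.03 (-0.31 to 0.25). Both lie within the span of DLGAP1 and share no exonic base with a listed gene. These 2 RNAs were chosen after their values were seen, as were PAX8-AS1 and NR2F1-AS1, which accompany genes of developmental transcription factors. PAX8-AS1 had 182 and 102 counts, a log2 fold of -0.99 (-1.35 to -0.63), and NR2F1-AS1 109 and 64, a log2 fold of -0.92 (-1.39 to -0.46). Both passed 2-fold with total-count scaling.

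Of the 114 members, 108 had a row for the gene named by the part before -AS, 107 genes in all because DLGAP1 served 2 members. No row was listed for BBOX1, CD27, CKMT2, FGD5, NINJ2 and RPARP. Among the 107 sense genes, 3 were higher by the rule (CFLAR, SRRM2 and ZNF433) and 5 lower (ADIRF, NUTM2B, ARHGAP5, RASSF8 and SLFNL1). Of the 90 with at least 100 counts, 5 passed (5.56%), beside 6% of all genes with that minimum, and their median log2 fold was 0.03.

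The ratio of antisense to sense counts does not depend on library scaling, and it was compared for the 99 pairs whose sense gene had at least 20 counts. It passed 2-fold with an interval that excluded 1 in 16 pairs (16.2%), 11 higher and 5 lower in the ZNF582 library. Over all 273 antisense and sense pairs with at least 20 counts on each side, which include these, 17.9% passed, 9.16% higher and 8.79% lower. The other 174 pairs have an antisense RNA with 20 to 99 counts. Of them 19% passed, 8.05% higher and 10.9% lower, beside 11.1% and 5.05% of the member pairs. Because genes of that count range passed more often, neither share is a background matched for counts. The direction of the antisense RNA said little about the sense gene. The log2 folds had the same sign in 53 of the 99 pairs, and across pairs, which share both libraries, Pearson's correlation was 0.06 and Spearman's rank correlation 0.15.

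**Figure D4:**
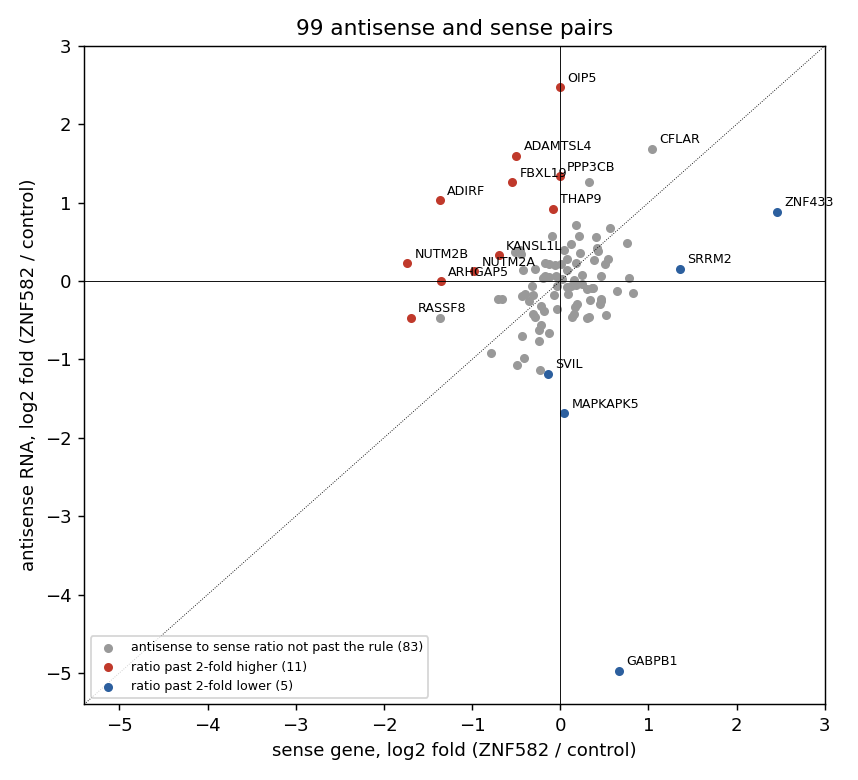
Log2 fold of the sense gene (x axis) against that of its antisense RNA (y axis) for the 99 pairs, with coloured points where the ratio of antisense to sense passed 2-fold. The points form a cloud without slope (Pearson's r 0.06), and OIP5-AS1 and GABPB1-AS1 depart along the antisense axis while ARHGAP5, RASSF8 and SRRM2 depart along the sense axis. Furthest out on the sense axis lie 2 rare genes, ZNF433 (9 control and 55 ZNF582 counts) and NUTM2B (15 and 5 counts).

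In 5 of the 10 pairs with the largest change of ratio, ranked by the interval end closer to 1, the sense gene stayed within 1.5-fold and the antisense RNA passed the rule: for OIP5 the ratio was 5.58-fold higher (4.68 to 6.64), for ADAMTSL4 4.27-fold higher (2.78 to 6.62), for FBXL19 3.50-fold higher (2.61 to 4.71), for PPP3CB 2.53-fold higher (1.76 to 3.71) and for MAPKAPK5 3.32-fold lower (2.35 to 4.77). The minimum of 100 was set on the antisense sum alone, which favours pairs whose antisense RNA moved. ADAMTSL4-AS1, PPP3CB-AS1 and MAPKAPK5-AS1 met it only through their higher library, so the number of such pairs is a description. In ADIRF the ratio was 5.25-fold higher (3.50 to 7.91) and in GABPB1 49.9-fold lower (36.6 to 69.4). The counts of the 2 genes moved in opposite directions in both pairs, though GABPB1 itself did not pass the rule. Both pairs share exonic bases, so how much each gene contributed cannot be told apart. AFAP1 was among the 10 through its narrow interval, with a ratio 1.85-fold higher (1.73 to 1.99) that did not pass 2-fold. The 2 remaining pairs turned on the sense gene. ARHGAP5 had 40759 control and 17733 ZNF582 counts, 2.55-fold lower (2.51 to 2.60), while ARHGAP5-AS1, which starts 679 bases from it, had 200 and 222. SRRM2 encodes a scaffold protein of nuclear speckles and had 3460 and 9822 counts, 2.55-fold higher (2.46 to 2.66), while SRRM2-AS1, with its start 271 bases away, had 125 and 155. Outside these 10, the ratio for SVIL was 2.07-fold lower (1.68 to 2.56). RASSF8 had 1245 and 428 counts beside 87 and 70 for RASSF8-AS1, and ZNF433, a KRAB zinc finger gene, had 9 and 55 counts beside 56 and 115 for ZNF433-AS1.

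**Figure D5:**
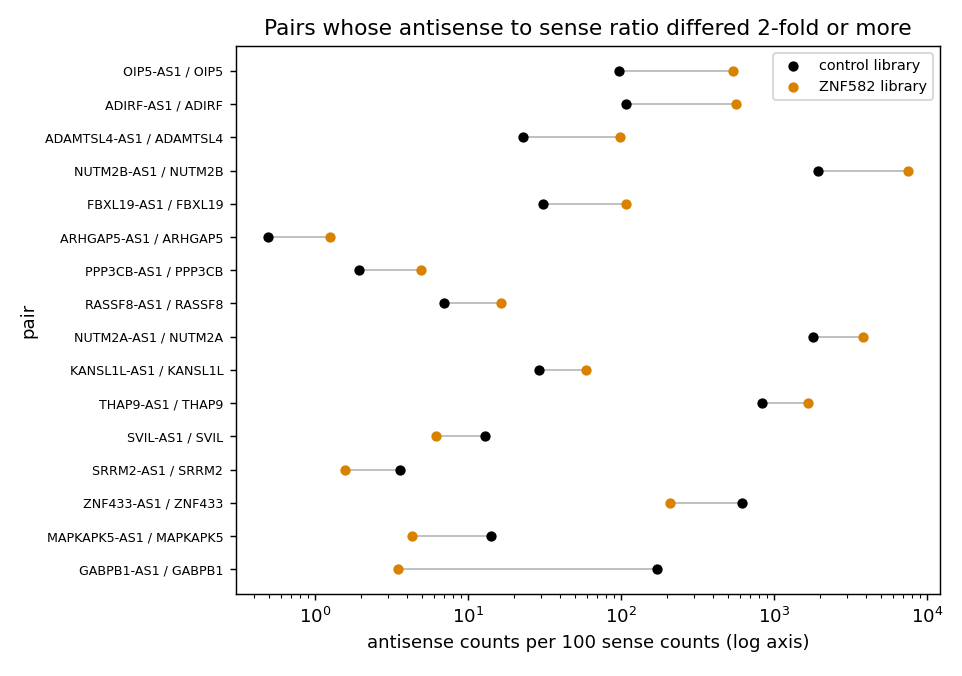
Antisense counts per 100 sense counts (x axis, log scale) in the control library (black) and the ZNF582 library (orange) for the 16 pairs past 2-fold, 1 pair a row, with a line between the libraries. OIP5-AS1 goes from 97.3 to 543 per 100 counts of OIP5, and GABPB1-AS1, with the longest line, goes the other way from 173 to 3.46 per 100 counts of GABPB1.

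On the scale of FPKM, which allows for length, the antisense RNA lay above its sense gene in 27 of the 99 pairs in the control library, in 23 in the ZNF582 library and in 21 in both. Its median level was 26.6% (control) and 28.1% (ZNF582) of that of the sense gene. By position, 38 pairs overlapped head to head and held 6 higher and 3 lower ratios, 31 overlapped tail to tail with 2 and 1, in 10 the sense gene lay inside the antisense gene with 2 and 1, and in 9 the antisense RNA lay inside the sense gene with 1 and 0. In 9 head-to-head pairs the deposited spans did not overlap, and there no ratio passed, with a median size of 0.15 on the log2 scale. With 16.2% of all 99 pairs past 2-fold, no call among 9 is near that share, and these small groups give no order of positions. Among the 9 pairs, TMEM51-AS1 shares 253 exonic bases with TMEM51 in the GENCODE models, so deposited spans that lie apart do not exclude shared exons. HNRNPU-AS1 is deposited on the same strand as HNRNPU, against its name, with a ratio of 0.35 on the log2 scale, and 1 pair lay tail to tail and apart.

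Shared sequence was common in the set. Of the 113 members found in GENCODE 29, the exons of 94 (83.2%) shared at least 1 base with the exons of another listed gene, 14 of them with a gene on the same strand, beside 41.3% of all genes with at least 100 counts. Among these 94 members 11 passed the rule (11.7%) and among the 19 without shared bases 1 passed (5.26%). For all genes with at least 100 counts the shares were 5.27% with shared bases and 6.52% without. Because the share of members without shared bases rests on 1 call among 19, no order can be read from the members. The part of shared reads in these values was not tested.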

How the data were processed

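RNA of 1 control and 1 ZNF582 library was sequenced from total RNA with the VAHTS Universal V6 kit, per the labels' protocols, without a statement on strand. Reads were processed with HISAT2 2.0.4 and StringTie 1.3.0 on GRCh38, per the submitters' processing notes. No source used here names the counting program or annotation release, so the deposited counts were treated as estimated counts, although all were whole numbers. The deposited FPKM values were scaled by the authors, per the file headers, and were used as levels. In 2 further columns the FPKM values were repeated and these were not used, and 1 record broken over 2 lines was rejoined. The libraries held 14765244 (control) and 17792172 (ZNF582) counts.

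TMM factors (1.04 and 0.960) came from edgeR 4.0.16 in R 4.3.3 on all 25534 genes. Folds, exact Clopper-Pearson intervals of the ZNF582 count given both counts, and exact conditional intervals of ratios were computed with scipy 1.17.1 in Python 3.11.15, at the 95% level, and tested on simulated data. Reads carry no molecular identifiers, so intervals cover counting error only. No p-value was computed, because 1 library per group gives no residual spread. Positions and strands are those deposited, exons are from GENCODE 29 (GRCh38), where 113 of 114 members were found, 5 with another span. The members and lists were chosen with earlier results of these data known. Named are the members past 2-fold, the 8 with most counts, the 10 pairs with the largest change of ratio, ranked by the interval end closer to 1, pairs with both genes past 2-fold, and the 3 RNAs on each side of the minimum; any other gene named was chosen after its values were seen. Alternatives were other scalings (total counts, total counts without ZNF582, DESeq2 1.42.0 size factors), log2 ratios of FPKM with pseudocounts of 0.1 and 1, minimum sums of 20, 50 and 200, members without shared exonic bases, and 1.5-fold and 3-fold in place of 2-fold.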

Additional observations from a re-analysis of the deposited data

How the results depend on the processing

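No paired analysis was possible because each group has 1 library, and no library could be left out. The numbers below give higher members, lower members, higher sense genes, lower sense genes and pairs with a changed ratio in that order, which were 7, 5, 3, 5 and 16 as reported. They were 1, 1, 1, 3 and 8 with FPKM and a pseudocount of 1, and with a pseudocount of 0.1 the lower sense genes were 3 and the pairs 10. With a minimum sum of 50 (188 RNAs) they were 14, 11, 7, 10 and 27, and with 20 (319 RNAs) 24, 26, 12, 12 and 49. A minimum of 200 (61 RNAs) gave 4 higher and 3 lower members and 1 higher sense gene. Members without shared exonic bases (19) gave 0, 1, 0, 0 and 0. At 1.5-fold the numbers were 13, 13, 8, 8 and 31, and at 3-fold 3, 2, 1, 2 and 7. Total-count scaling moved the median log2 fold of all genes from 0.02 to -0.10. By this scaling 11 of the 12 members remained past 2-fold and PAX8-AS1 and NR2F1-AS1 were added, and with DESeq2 size factors all 12 remained. With FPKM, 9 remained at a pseudocount of 0.1 (PPP3CB-AS1, ADIRF-AS1 and IRF1-AS1 were lost), and OIP5-AS1 and GABPB1-AS1 at a pseudocount of 1, which shrinks the ratio of members with a low FPKM. No value past 2-fold changed sign under these alternatives, but values near 0 did. With DESeq2 size factors the members' median log2 fold went from -0.01 to 0.02, and OIP5, PPP3CB and ARHGAP5-AS1 from 0.00 to 0.03, 0.03 and 0.04. With total counts MAPKAPK5 went from 0.05 to -0.07 and SLC16A1 from 0.04 to -0.07, and both were below 0 also with FPKM and without ZNF582 in the total. The median counting interval of a member reached 0.41 on the log2 scale to each side, so smaller differences were not detectable at this depth for a member of median precision.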

Other observations

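Genes of the machinery that removes or senses antisense and double-stranded RNA were described from a list chosen with earlier results known. Of 21 genes of the nuclear exosome and its adaptors, which degrade many antisense RNAs in the nucleus, none passed 2-fold, and the median log2 fold was 0.25, from -0.29 for TENT4B to 0.77 for RBM7, beside 0.02 for all genes with at least 100 counts. Of 8 genes of 5′ decay and transcription termination, 2 were higher and none lower, beside 3.19% higher and 2.81% lower of all genes with at least 100 counts. DCP2, the decapping enzyme, had 904 control and 3374 ZNF582 counts, 3.36-fold higher, and PCF11, a termination factor, had 684 and 1558, 2.05-fold higher. With total-count scaling the log2 fold of PCF11 was 0.92, no longer past 2-fold. None of 16 genes for the editing, cleavage or sensing of double-stranded RNA passed, and the 0 calls here and among the exosome genes stand beside 6% of all genes. The genes for double-stranded RNA ran from -0.39 for DHX9 to 0.42 for IFIH1 on the log2 scale. Whether these levels bear on any antisense RNA was not tested.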
